A study of Mus musculus with 8 samples.

Results

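Dystrophin, its homologue utrophin, dystroglycan, the sarcoglycans and sarcospan form or join the dystrophin glycoprotein complex of the muscle fibre membrane. Transcripts of 8 of these genes, Dmd, Utrn, Dag1, Sgca, Sgcb, Sgcd, Sgce and Sspn, were measured in diaphragm on Affymetrix expression arrays. They were found by symbol among the probe sets that the platform annotation gives exactly 1 gene, which yielded 17 of 22626 probe sets and 8 of 12393 genes. The dystrophic group was 4 arrays of dy/dy diaphragm, from mice homozygous for the dy allele, whose dystrophy comes from a deficiency of laminin. The normal group was 4 arrays of diaphragm from mice labelled as controls for dy/dy. All mice were 8 weeks old, and each array held the muscle of 3 mice, so that 1 pool was the unit of replication. The pools held different mice. Variation from mouse to mouse is reduced within a pool but not removed. The labels name neither strain nor sex nor the exact genotype of the controls.

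The complex runs from the basement membrane to the cytoskeleton. The α subunit of dystroglycan binds laminin outside the fibre, its β subunit spans the membrane, and dystrophin ties that subunit to actin inside. The sarcoglycans and sarcospan sit in the membrane beside dystroglycan and stabilise the link. Utrophin can take the place of dystrophin, and in adult mouse muscle it is known mainly from the neuromuscular junction and from regenerating fibres. The dy/dy mouse is deficient in the ligand at the outer end of this chain, so the comparison addresses whether transcripts of the receptor and its anchors differ when laminin α2 is deficient.

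Signals are the authors' MAS5 intensities after rescaling every array to a common trimmed mean of 487.7, since normal replicate 4 had been deposited on a lower scale than the other 7 arrays. Differences are dystrophic minus normal on the scale of log2(signal + 16), which makes a change in a dim gene look smaller. A probe set was called when limma's p, adjusted by the Benjamini-Hochberg method over 13575 tested probe sets, was under 0.05. Signals of different probe sets cannot be set against each other. In bulk muscle, fewer cells of a type and less RNA per cell cannot be told apart.

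Lama2, which encodes laminin α2, checked the labels. Its signal was 333, 240, 275 and 232 in dystrophic pools, against 793, 982, 859 and 749 in normal pools, and the dystrophic group was lower by limma (log2 difference -1.60, SE 0.15, adjusted p = 0.000891). Markers of skeletal muscle fibres had 0 of 9 called, with summed signals of 155475 to 177968 in dystrophic and 155422 to 241089 in normal pools. Of these 9, 7 lay below 0 and 2 above, with a median log2 difference of -0.21, against -0.01 over all genes tested. Markers of regenerating fibres summed to 3275 to 5198 in dystrophic and 1418 to 1467 in normal pools, with 5 of 6 called higher. Among these Myh3, the embryonic myosin heavy chain gene, averaged 833 ± 229 in dystrophic and 9.3 ± 1.4 in normal pools (SD, n = 4 each). Summed fibroblast, macrophage and Schwann cell markers were also higher in every dystrophic pool than in any normal pool, with 2 of 6, 3 of 6 and 0 of 3 tested markers called. Of all genes tested, 0.597% were called higher and 0.0487% lower. Of the 3 Schwann cell markers tested, out of 7 listed, 2 lay above 0 and 1 below. Endothelial, smooth muscle and adipocyte markers had 0 called, and their summed signals overlapped between the groups. Liver transcripts stood out in dystrophic replicate 3, where 4 hepatocyte markers summed to 35720, against 1427 to 4690 in the other dystrophic pools and 890 to 2859 in normal pools. Signals of the spike-in controls put the arrays into 3 sets, namely replicate 1 of each group, replicate 3 of each, and replicates 2 and 4 of each.

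No gene of the dystrophin complex passed the test. Of the 17 probe sets 14, for 7 of the 8 genes, were bright enough to be tested, and limma called 0 of 14, against 0.494% of all probe sets tested. At an unadjusted p under 0.05 there were also 0 of 14, against 9.72% of all. In 0 of 14 did the groups stand apart without overlap, a property of 6.4% of all. The smallest limma adjusted p was 0.572. Without dystrophic replicate 3, the pool with the highest liver transcript signal, and without it and normal replicate 4 together, the count was again 0 of 14. The median absolute log2 difference was 0.11 over the 14 probe sets and 0.15 over all tested. Over the 7 genes, each by its brightest probe set, the median difference was 0.00, and over all 8214 genes tested it was -0.01.

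**Figure D1:**
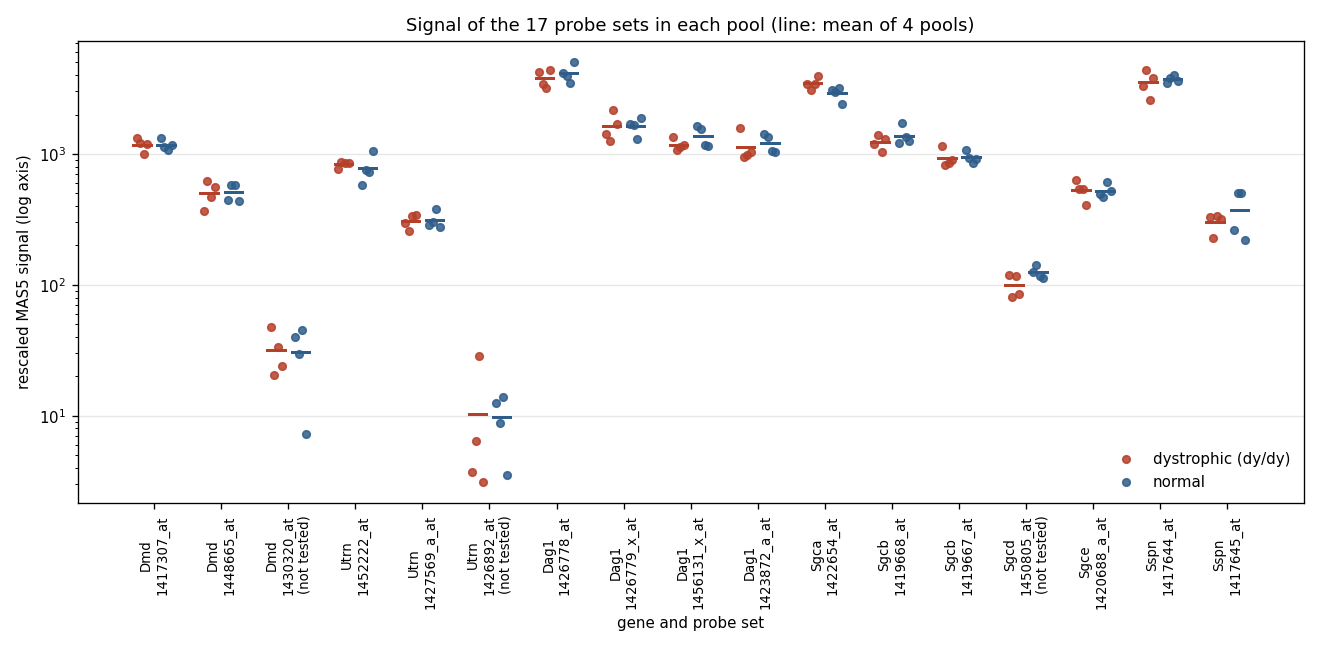
Rescaled MAS5 signal (log axis) of each of the 17 probe sets, with 1 point for each of 4 dystrophic pools (red, left) and 4 normal pools (blue, right) and a line at each mean. The points of both groups overlap in every probe set, for example at 991 to 1316 in dystrophic and 1075 to 1313 in normal pools for Dmd 1417307_at.

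Dmd encodes dystrophin, the long rod-shaped protein that links actin to dystroglycan and is lacking in the mdx mouse. Its brightest probe set, 1417307_at, had signals of 1316, 1222, 991 and 1193 in dystrophic pools, against 1313, 1137, 1075 and 1165 in normal pools. The means were 1181 ± 137 in dystrophic and 1173 ± 101 in normal pools (SD, n = 4 each). The log2 difference was 0.01 (SE 0.13, 95% interval -0.28 to 0.29, limma adjusted p = 0.996), with p = 0.971 in an exact two-sided permutation test over the pools. The interval corresponds to 0.824 to 1.22 times the normal level. A second probe set, 1448665_at, had 367, 620, 468 and 555 in dystrophic pools, against 444, 582, 583 and 436 in normal pools. Its difference was -0.04 (SE 0.18). Probe set 1430320_at was too dim to be tested, with signals of 20.4 to 48.0 in dystrophic and 7.3 to 45.0 in normal pools. Those values lie near the range of the negative spike-in controls, which was 0.78 to 32.2.

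The Dmd gene is known for several start sites, which give the full-length muscle protein and shorter products in other tissues. RefSeq lists 2 starts for it among the promoter windows at hand (build GRCm38.p6), and the sources used here do not say which transcripts each probe set reads. The 250 bases before each start are shown because the probe sets may pool their transcripts, together with those before the start of Sgca, whose product occurs almost only in striated muscle. Capitals mark the E-box CANNTG, the motif of myogenic factors, and the GC box GGGCGG or its reverse complement CCGCCC, and adjoining matches may overlap. The windows are chrX:82948620-82948869 and chrX:85048045-85048294 on the plus strand and chr11:94976328-94976577 on the minus strand, all written 5′ to 3′ along the gene.
Dmd, upstream start: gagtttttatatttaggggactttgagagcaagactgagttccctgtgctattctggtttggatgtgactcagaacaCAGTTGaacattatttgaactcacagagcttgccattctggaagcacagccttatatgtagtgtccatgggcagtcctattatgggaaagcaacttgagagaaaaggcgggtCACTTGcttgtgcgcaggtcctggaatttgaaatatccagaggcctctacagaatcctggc
Dmd, downstream start: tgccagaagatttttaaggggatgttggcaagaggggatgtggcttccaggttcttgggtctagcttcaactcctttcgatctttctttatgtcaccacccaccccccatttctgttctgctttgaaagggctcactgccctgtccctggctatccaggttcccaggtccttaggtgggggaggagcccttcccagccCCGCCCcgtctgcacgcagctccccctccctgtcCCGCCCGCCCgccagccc
Sgca: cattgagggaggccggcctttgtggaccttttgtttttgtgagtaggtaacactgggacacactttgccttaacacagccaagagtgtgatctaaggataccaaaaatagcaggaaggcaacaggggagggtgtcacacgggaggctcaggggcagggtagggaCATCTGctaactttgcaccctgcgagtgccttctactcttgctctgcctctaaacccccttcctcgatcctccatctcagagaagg

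The upstream Dmd window held 2 E-boxes and 0 GC boxes, and the downstream window 0 E-boxes and 3 GC boxes. The Sgca window held 1 E-box and 0 GC boxes. Of 32851 RefSeq windows of the same length, 66.2% held an E-box and 32.7% a GC box, so these letters are common. Windows were at hand for 7 of the 8 genes. The arrays read transcripts and give no binding at these sequences.

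Utrn encodes utrophin, the autosomal relative of dystrophin that binds the same membrane partners. Its brightest probe set, 1452222_at, had 771, 861, 852 and 853 in dystrophic pools, against 574, 749, 728 and 1055 in normal pools. The dystrophic pools lay close together and inside the range of the normal pools, with means of 834 ± 42.0 in dystrophic and 777 ± 201 in normal pools (SD, n = 4 each). The log2 difference was 0.13 (SE 0.17, 95% interval -0.24 to 0.51, limma adjusted p = 0.860), with an exact two-sided permutation p of 0.571. In fold terms the interval ran from 0.847 to 1.42. A second probe set, 1427569_a_at, had 299, 259, 334 and 344 in dystrophic pools, against 287, 301, 380 and 277 in normal pools, a difference of -0.01 (SE 0.16). Probe set 1426892_at was among the dimmest on the array, at 3.1 to 28.4 in dystrophic and 3.5 to 14 in normal pools, with the highest value in dystrophic replicate 3.

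The signal of Utrn was then taken relative to that of Dmd within each pool, since utrophin can stand in for dystrophin. The log2 signal of Utrn minus that of Dmd was -0.76, -0.50, -0.22 and -0.48 in dystrophic pools, against -1.17, -0.59, -0.55 and -0.14 in normal pools. The lowest and the highest of the 8 values were both in normal pools. The means differed by 0.13, with p = 0.6 in an exact two-sided permutation test, where 0.0286 is the smallest p that 4 pools against 4 allow. Without normal replicate 1 the difference was -0.06. No shift of utrophin relative to dystrophin transcript was detectable with 4 pools a group.

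Dag1 encodes the precursor of α- and β-dystroglycan, the laminin receptor at the core of the complex. Its brightest probe set, 1426778_at, had 4218, 3415, 3213 and 4359 in dystrophic pools, against 4176, 3957, 3483 and 5072 in normal pools. The lowest 2 pools were dystrophic and the highest was normal, but the groups overlapped. The log2 difference was -0.13 (SE 0.15, 95% interval -0.47 to 0.20, limma adjusted p = 0.842). The other 3 probe sets were at -0.02, -0.21 and -0.11, so that all 4 lay below 0 and none passed. The lowest of them, 1456131_x_at, had 1348, 1072, 1123 and 1166 in dystrophic pools, against 1639, 1550, 1171 and 1155 in normal pools (limma adjusted p = 0.708). The probe sets did not rank the pools alike. Probe set 1426779_x_at was highest in dystrophic replicate 3, at 2174, where 1426778_at was at its lowest. Probe set 1423872_a_at was highest in dystrophic replicate 1, at 1574, against 954 to 1036 in the other dystrophic pools and 1036 to 1409 in normal pools. In Affymetrix names the ending _x_at marks probes that may bind other transcripts too.

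Sgca encodes α-sarcoglycan, the sarcoglycan most restricted to striated muscle. It had the largest absolute difference of the 14 tested probe sets. Its 1 probe set, 1422654_at, had 3451, 3068, 3433 and 3928 in dystrophic pools, against 3054, 2983, 3216 and 2414 in normal pools. In 3 of 4 dystrophic pools the signal was above the highest normal pool. The means were 3470 ± 353 in dystrophic and 2917 ± 349 in normal pools (SD, n = 4 each). The log2 difference was 0.25 (SE 0.13, 95% interval -0.04 to 0.54), and it did not pass (limma adjusted p = 0.572, exact two-sided permutation p = 0.0571). Within the sets of arrays with like spike-in signal it was 0.18, 0.09 and 0.37. It lay above 0 under all 21 alternatives, at 0.16 to 0.33, with limma adjusted p of 0.452 to 0.869.

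Sgcb encodes β-sarcoglycan, which with δ-sarcoglycan forms the core of the sarcoglycan subcomplex. Its brighter probe set, 1419668_at, had 1184, 1386, 1040 and 1311 in dystrophic pools, against 1203, 1716, 1358 and 1253 in normal pools. The groups overlapped, with a log2 difference of -0.16 (SE 0.15, 95% interval -0.49 to 0.16, limma adjusted p = 0.789). The other, 1419667_at, had 1150, 818, 847 and 894 in dystrophic pools, against 1067, 925, 860 and 907 in normal pools, a difference of -0.03 (SE 0.14).

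Sgcd, the δ-sarcoglycan gene, was dim. Its 1 probe set, 1450805_at, had 120, 80.1, 116 and 85.2 in dystrophic pools, against 126, 143, 116 and 112 in normal pools. It ranked above 38.0% of probe sets, just under the limit of 40% for testing. The means were 100.4 ± 20.6 in dystrophic and 124 ± 13.8 in normal pools (SD, n = 4 each), and 2 dystrophic pools lay below the lowest normal pool. In a fit with no filter the log2 difference was -0.28 (SE 0.21, 95% interval -0.75 to 0.18, limma adjusted p = 0.824). It lay below 0 in all 19 repeats of that fit, at -0.39 to -0.20, and passed in none. Within the sets of arrays it was -0.07, 0.00 and -0.53.

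Sgce encodes ε-sarcoglycan, a relative of α-sarcoglycan made in many tissues from the paternal allele. Its probe set had 630, 537, 542 and 407 in dystrophic pools, against 496, 467, 616 and 523 in normal pools. Both the highest and the lowest of the 8 pools were dystrophic. The log2 difference was 0.00 (SE 0.16, 95% interval -0.34 to 0.35, limma adjusted p = 1).

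Sspn encodes sarcospan, a tetraspan protein that joins the sarcoglycans. Probe set 1417644_at had 3279, 4380, 2591 and 3820 in dystrophic pools, against 3492, 3777, 4008 and 3621 in normal pools. The dystrophic pools spread to either side of the normal pools, and the log2 difference was -0.11 (SE 0.16, 95% interval -0.45 to 0.24, limma adjusted p = 0.891). The dimmer probe set, 1417645_at, had 329, 230, 338 and 318 in dystrophic pools, against 262, 506, 501 and 219 in normal pools. The normal pools fell into a high and a low pair here, and the difference of -0.20 had the largest SE of the 14, at 0.26.

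**Figure D2:**
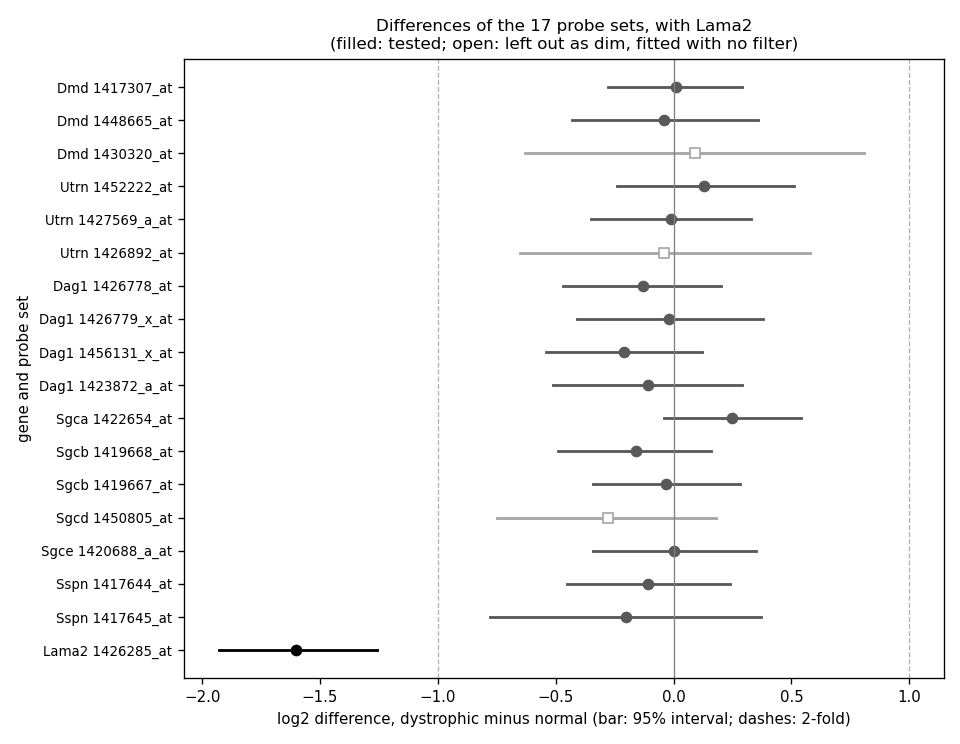
Log2 difference, dystrophic minus normal, of each probe set with its 95% interval from limma. Filled circles were tested, open squares were too dim and come from a fit with no filter, and dashed lines stand at 2-fold. All 14 filled intervals of the complex hold 0 and stop short of 2-fold, while Lama2 lies at -1.60. Over the whole array, 12255 of 13575 intervals hold 0 and 1021 reach 2-fold.

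The intervals show what 4 pools a group could resolve. All 14 held 0, as did 12255 of all 13575 tested. None of the 14 reached a 2-fold difference in either direction, against 1021 of all tested. Only 1, that of Sspn 1417645_at, reached 1.5-fold, against 5861 of all tested. The lowest bound of the 14 was -0.78, or 0.581 times the normal level, and the highest was 0.54, or 1.455 times. These are intervals for each probe set alone. The median SE was 0.16 for the 14 and 0.18 for all tested, and the median SD within groups was 0.22 and 0.24 on the log2 scale, so the complex was measured about as precisely as the rest of the array. The sign of a value so near 0 depended on the processing and on which arrays were kept. Of 14 probe sets, 8 changed sign under at least 1 of 21 alternatives, some of which left arrays out, and 6 kept it. Sgce, whose difference rounds to 0, is among the 8. A small difference in any of these genes cannot be told from none.

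**Figure D3:**
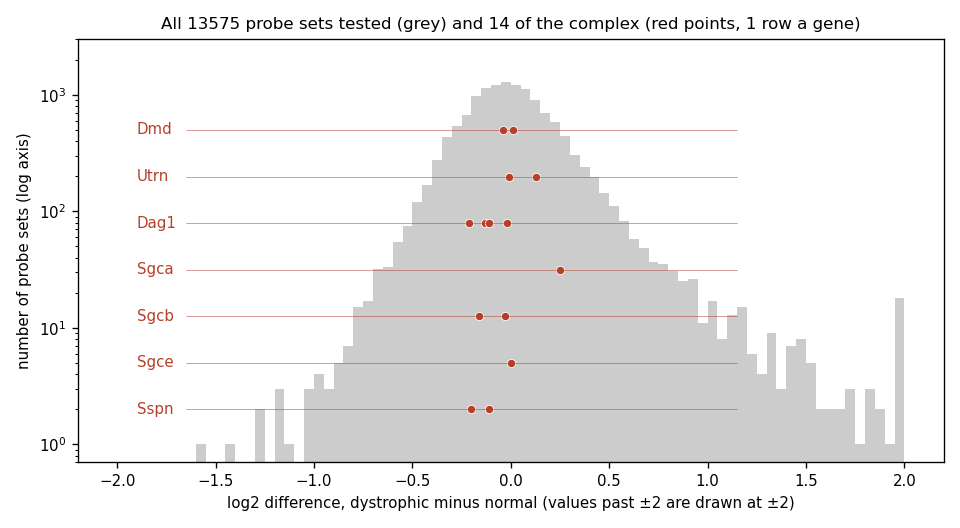
Histogram of the log2 differences of all 13575 probe sets tested (grey, count on a log axis), with the 14 probe sets of the complex as red points in 1 row a gene. The points lie between -0.21 and 0.25, in the centre of the grey distribution, whose right tail is the longer.

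Within the sets of arrays with like spike-in signal, which hold 1 or 2 pools a group and are given without a test, the brightest probe sets of most of the other genes differed in sign. Dmd was at 0.00 in the replicate 1 arrays, -0.11 in the replicate 3 arrays and 0.07 in the rest, and Utrn at 0.42, 0.22 and -0.05. Dag1 was at 0.01, -0.12 and -0.21. Sgcb, at -0.02, -0.38 and -0.12, was the 1 of these 6 genes below 0 throughout. Sgce was at 0.34, -0.18 and -0.08, and Sspn at -0.09, -0.63 and 0.15. With these sets as a block in the fit, limma again called 0 of 14, with a lowest adjusted p of 0.452.

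Other proteins that belong to the complex or bind it were taken from a list of 29 genes, of which 23 had a probe set and 18 were tested. limma called 0 of 18 higher, against 0.597% of all genes, and 1 lower, against 0.0487%. The 1 was Lama2, whose product dy/dy mice are deficient in, and 0 of the other 17 were called by their brightest probe set. The median difference was 0.01 with Lama2 and 0.02 without it. Another probe set of Bgn, not the brightest, did pass, as given below. At an unadjusted p under 0.05 there were 3 of 18 higher, Bgn, Ank3 and Cav3, against 6.57% of all genes, and 1 lower, Lama2, against 4.19%. The groups did not overlap in 3 of 18, Lama2, Bgn and Cav3, against 7.17% of all genes.

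Cav3 encodes caveolin 3, the muscle caveolin, which binds β-dystroglycan. It had 1311, 1318, 1280 and 1331 in dystrophic pools, against 1047, 897, 1067 and 947 in normal pools. Every dystrophic pool lay above every normal pool, by a log2 difference of 0.40 (SE 0.11) that did not pass (limma adjusted p = 0.2, exact two-sided permutation p = 0.0286). Within the sets of arrays it was 0.32, 0.26 and 0.52. Under the 21 alternatives the limma adjusted p was 0.122 to 0.531. Regenerating-fibre markers were higher in the same pools, as given above, and their part in the Cav3 values was not tested.

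Bgn encodes biglycan, a matrix proteoglycan that binds dystroglycan and sarcoglycans. Its brightest probe set had 5158, 5361, 4833 and 5099 in dystrophic pools, against 3466, 3587, 2673 and 3806 in normal pools. The groups did not overlap, and the difference of 0.60 (SE 0.13) missed the threshold (limma adjusted p = 0.0830). It passed in 4 of 21 alternatives, with limma adjusted p of 0.0359 to 0.246. A second Bgn probe set, 1448323_a_at, did pass, at 4543 ± 503 in dystrophic and 2282 ± 578 in normal pools (SD, n = 4 each), a difference of 1.01 (limma adjusted p = 0.0272). Probe set 1437889_x_at was at 1.37 and did not (limma adjusted p = 0.195). Summed fibroblast markers, among them other matrix genes, were 36518 to 46217 in dystrophic and 25561 to 30477 in normal pools, and their part in the Bgn values was not tested.

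Ank3 encodes ankyrin G, an adaptor that binds dystrophin and β-dystroglycan. It had 599, 846, 839 and 932 in dystrophic pools, against 562, 560, 675 and 552 in normal pools. The groups overlapped, with a difference of 0.43 (SE 0.16, limma adjusted p = 0.370), and its other 2 probe sets were at 0.34 and 0.48. Plec, for the linker plectin, was at 0.25 (SE 0.18), with its other probe set at 0.32 (SE 0.27). With each array left out in turn, its brighter probe set ran from -0.02 (without normal replicate 4) to 0.40 (without normal replicate 1). The water channel gene Aqp4, anchored through syntrophin, was at -0.40 (SE 0.24), with its other probe set at -0.51, and it moved to -0.21 without dystrophic replicate 4 and to -0.61 without normal replicate 4. Sync, for the dystrobrevin-binding filament protein syncoilin, was at -0.24 (SE 0.17), with its other 2 probe sets at 0.01 and 0.15. None of these was called.

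**Figure D4:**
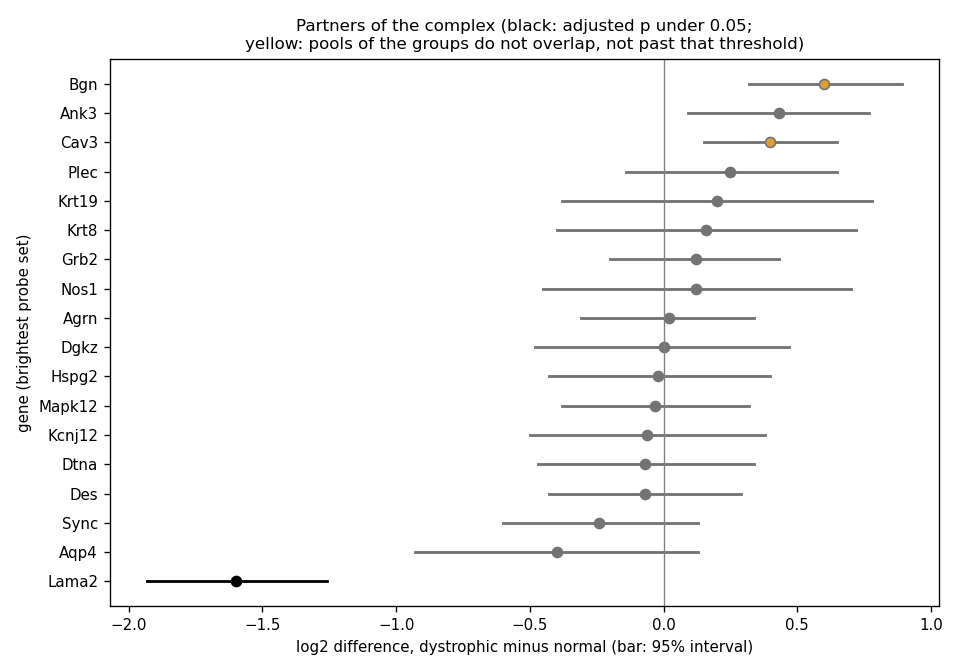
Log2 difference, dystrophic minus normal, with 95% interval from limma, of the 18 tested partner genes by their brightest probe set. Lama2 (black) was called, at -1.60, and Bgn and Cav3 (yellow) had groups that did not overlap without passing the threshold.

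The genes whose pattern over the 8 pools was most like that of a gene of the complex were found by the root-mean-square difference of mean-centred log2 values over 8213 other genes. For Dmd they were Vps18 (0.049) and Zswim7 (0.054), and for Utrn they were Ncl (0.075) and Usp7 (0.082). For Dag1 they were Calr (0.031) and Iscu (0.065), and for Sgca they were Ash2l (0.071) and Wtap (0.077). Genes picked for lying this near to uncalled genes have like group differences by the choice itself. Theirs ran from -0.15 to 0.26, and none of these 8 genes was called. How near the best of 8213 genes come by chance was not tested. No other gene of the complex was among them.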

How the data were processed

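The authors deposited 1 table of MAS5 signal intensity values on a linear scale for 22690 probe sets, 64 of them controls. MAS5 is named per the submitters' processing notes, without a version. Detection calls were not used here. The trimmed mean (2% at each end) came to 500.2 for 7 arrays but 400.2 for normal replicate 4, and every array was brought to 487.7. Tests used log2(signal + 16) and limma 3.58.1 under R 4.3.3, with lmFit and trended eBayes, 4 dystrophic against 4 normal pools, without controls and the lowest 40% of probe sets by mean log2 value. The platform annotation gave 1 gene symbol to 20380 probe sets, several to 691 and none to 1555. Only the first kind named a gene. Symbols were updated by Entrez identifier from RefSeq, where 20351 matched. Where several probe sets read 1 gene, the brightest stood for it.

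The genes, gene lists and tests were chosen with earlier results of these data known. Named besides the members were Lama2 and Myh3, every called partner and the 6 partners with the largest differences not called, and 2 genes nearest in pattern to each of Dmd, Utrn, Dag1 and Sgca. The number of arrays limits the precision. Sets of arrays with like spike-in signal had geometric means of 543 to 588, 307 to 354 and 125 to 172. Alternatives varied the offset, normalization, filter, variance model, array weights, blocks and arrays. Promoter windows came from RefSeq. Plots used Python 3.11.15 with matplotlib 3.10.9.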

Additional observations from a re-analysis of the deposited data

Results flagged for a closer look

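Of 34 groups of 4 pools examined (17 probe sets in 2 groups), 3 held a pool far from the other 3 by Dixon's ratio at the 95% level, and chance alone gives about 1 in 20. All 3 were dystrophic pools.

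Utrn 1452222_at was lowest in dystrophic replicate 1, at 771.4, with the other 3 at 852 to 861, so the gap was small in size. The difference was 0.17 without that pool, and over all pools left out in turn it ran from 0 (without normal replicate 1) to 0.29 (without normal replicate 4). Dag1 1423872_a_at was highest in dystrophic replicate 1, at 1573.8, with the others at 954 to 1036, and its difference was -0.27 without that pool. Sspn 1417645_at was lowest in dystrophic replicate 2, at 229.7, with the others at 318 to 338, and its difference was -0.08 without that pool. It was -0.03 without normal replicate 2, -0.04 without normal replicate 3 and -0.42 without normal replicate 4.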

How the results depend on the processing

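No probe set of the complex was called under any of the 22 alternatives. Over 21 refits of 14 probe sets, 294 values ran from -0.47 to 0.33 with a lowest adjusted p of 0.452, and 38 had the opposite sign to the main fit. Of the 38, 10 were of Sgce, whose reported difference rounds to 0. Signs were taken before rounding to the digits given here, so some counted values print as 0. As deposited, the opposite signs were those of Dmd 1448665_at (0.04), Utrn 1427569_a_at (0.07), Dag1 1426779_x_at (0.06) and Sgcb 1419667_at (0.05). There the median over all probe sets tested was 0.065, against -0.012 in the main fit. Sgce was at 0 with an offset of 1, at -0.01 under quantile normalization, and with array weights at -0.07, where Dag1 1426779_x_at was at 0.02. After a 75th percentile shift Dmd 1417307_at and Sgce were at -0.01. Without normal replicate 4 and dystrophic replicate 3 together, Dag1 1426778_at was at 0.04, Sspn 1417644_at at 0.02 and Sgce at -0.02. With each array left out in turn, Dmd 1417307_at ran from -0.05 to 0.09, Dmd 1448665_at from -0.14 to 0.10, Utrn 1427569_a_at from -0.06 to 0.09, Dag1 1426779_x_at from -0.16 to 0.10, Sgcb 1419667_at from -0.13 to 0.03, Sgce from -0.09 to 0.12, Sspn 1417644_at from -0.22 to 0.03, Plec from -0.02 to 0.40 and Utrn relative to Dmd from -0.06 to 0.28. The cause of these changes was not tested. Partner genes called numbered 2, Lama2 and Bgn, under quantile normalization, as deposited, with array weights and with the spike-in block. Over the whole array 67 probe sets were called, against 127 with array weights, 114 with the spike-in block, 24 at an adjusted p of 0.01, 31 without those 2 arrays and 25 to 61 with each array left out (34, 29 and 25 without dystrophic replicates 2, 3 and 4). The replicate number as a block gave 105 and changed no call among the members or partners. The main fit and the permutation tests did not pair pools by number and took no account of the spike-in sets. Pools of the same number had correlations of their deviations of 0.484, -0.046, 0.145 and 0.133, which do not settle whether they are paired. The spike-in sets follow the number for replicates 1 and 3. Dim probe sets (Sgcd, 1 of Dmd and 1 of Utrn) were under the limit for testing, ranking above 38.0%, 15.8% and 4.8% of probe sets.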
